A study of Mus musculus with 6 samples.

Results

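The genes described here encode receptors for steroid and thyroid hormones and for prolactin, together with a pair of related orphan receptors, in mouse testis. They are Esr1, Esr2, Nr3c1, Pgr, Thra, Thrb, Prlr, Nr0b1 and Nr2c2. An mRNA probe was taken as a member where its RefSeq accession belongs to one of these genes, which gave 11 probes for 9 genes out of 19049 named mRNA genes on the array. RNA from whole testis of male C57/BL6 mice was measured on 6 one-colour arrays, 3 from neonatal mice of 6 days and 3 from adult mice of 8 weeks. The mice of each age were divided into 3 groups, so that an array may hold RNA pooled from several animals. The paper lists more neonatal than adult mice, so the number of animals behind an array may differ between the ages. Replicate 3 of both ages was scanned in a separate run from the other replicates.

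Nuclear receptors are transcription factors that bind DNA and change the transcription of nearby genes, in most cases when a hormone or other small lipophilic molecule occupies them. Orphan members of the family, such as Nr0b1 and Nr2c2, have no settled hormone, and Nr0b1 acts mainly as a repressor of other receptors. Prlr belongs to a different family, the cytokine receptors of the cell surface, and signals through the kinase Jak2 and the Stat5 factors. In the testis, thyroid hormone is known for ending the division of immature Sertoli cells, and prolactin for acting on Leydig cells.

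Signals are given as log2 of the intensity relative to the 75th percentile of the same array, so that 0 is the level of a probe at that percentile, and the lowest value that could be given was -7.23. Changes are adult minus neonatal log2 values from limma, in which replicate numbers entered as blocks, and p-values are Benjamini-Hochberg adjusted over all probes tested. Spots that the scanner software marked as outliers were left out. Of the 11 receptor probes, all rose well above background somewhere among the arrays, and 8 probes of 7 genes had enough unmarked spots for the test. At an adjusted p of at most 0.05, 3 receptor probes were higher in adult testis, against 29.7% of the 15121 mRNA probes tested, and 3 were lower, against 45.8%. With 6 of 8 receptor probes called and 75.5% of all mRNA probes called, the receptors were near the background of this comparison. The median change of all mRNA probes tested was -0.40, and changes relative to that median are given where it bears on the direction.

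Esr2 encodes oestrogen receptor beta and lies on chromosome 12 at 76120419 to 76177259 in GRCm38.p6. Its probe for NM_010157 read 1.48, 1.75 and 2.32 in neonatal replicates 1, 2 and 3, and 2.82, 2.74 and 3.63 in adult replicates 1, 2 and 3. Every adult array was above every neonatal array, and replicate 3 was the highest of both ages. The share of all mRNA probes with groups apart in this way is not given, while 75.5% were called. Groups that do not overlap, here or below, are therefore not shown to set a receptor apart. Esr2 rose by 1.21 (SE 0.13, adjusted p = 0.00167), from 1.85 ± 0.43 (SD, n = 3) to 3.06 ± 0.49 (SD, n = 3), with the adult value higher in 3 of 3 pairs. The probe for the other Esr2 transcript, NM_207707, read 2.08, 2.24 and 2.70 in neonatal and 3.10, 3.21 and 4.17 in adult testis, with the spot of neonatal replicate 3 marked as an outlier. These groups did not overlap either, and the change over the remaining pairs was 0.99 (SE 0.14, adjusted p = 0.00878). A change in the number of cells of a type and a change in RNA per cell cannot be told apart in whole testis, for Esr2 or for any gene below.

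Esr1 encodes oestrogen receptor alpha and lies on chromosome 10 at 4611989 to 5005633. Its probe NM_007956 read -7.23, -4.66 and -7.02 in neonatal testis and -7.23, -7.23 and -5.04 in adult testis. Neonatal replicate 2 and adult replicate 3 were the only arrays on which the probe was well above background, and the groups overlapped. The change was -0.20 (SE 0.92, adjusted p = 0.855) and its sign was not stable across settings, so no direction can be given for Esr1 at this signal.

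Pgr encodes the progesterone receptor and lies on chromosome 9 at 8898900 to 8968611. Its probe NM_008829 read -4.42, -4.32 and -3.91 in neonatal testis and was at the floor of -7.23 on all 3 adult arrays. The neonatal signals were dim but well above background on 3 of 3 arrays, and none of the adult signals was. Pgr was 6.18-fold lower in adult testis when its neonatal mean was set against the lowest signal well above background on each adult array. Some other probes above that level were not well above background, so this is not a strict lower bound. The fit gave an adjusted p of 0.000262. The measured means were -4.21 ± 0.27 (SD, n = 3) in neonatal testis and the floor in adult testis. It was the 1 tested receptor probe past both the adjusted p and a fold change of 5, a rule that 13.7% of mRNA probes tested met in the lower direction. With normexp background correction, which adds an offset of 50 to each signal, the change of Pgr was -0.95 and no longer reached 5-fold.

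**Figure D1:**
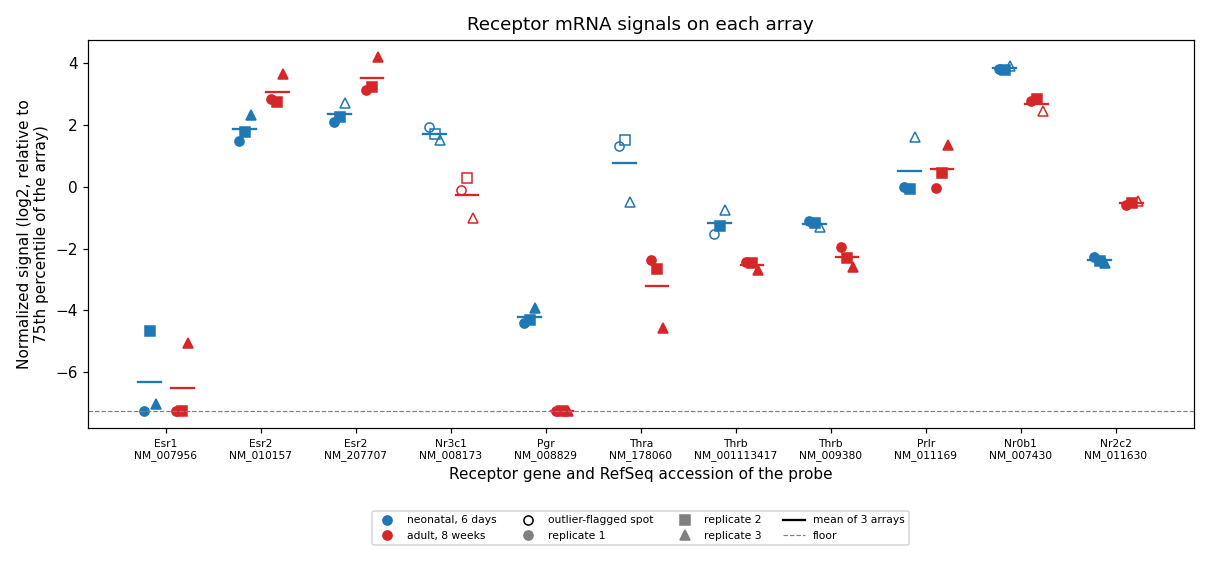
Normalized signal (log2, relative to the 75th percentile of the array) of each receptor probe on each array, with neonatal arrays in blue, adult arrays in red, a marker shape for each replicate, open markers for outlier-marked spots, bars for the mean of 3 arrays and a dashed line for the floor of -7.23. The adult points lie above the neonatal ones for Esr2 and Nr2c2, below them for Nr3c1, Pgr, Thra, Thrb and Nr0b1, and among them for Esr1 and Prlr.

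Nr3c1 encodes the glucocorticoid receptor. Its probe NM_008173 had an outlier mark on all 6 arrays, so that it could not be tested without those spots, and its values are given with them kept, a choice made after seeing the data. It read 1.93, 1.68 and 1.49 in neonatal testis and -0.11, 0.26 and -1.02 in adult testis. All adult values were below all neonatal values. With the marked spots kept on all arrays, the change was -1.99 (SE 0.24, adjusted p = 0.00186), which was -1.49 relative to the median of all mRNA probes in that fit.

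The thyroid hormone receptors Thra and Thrb are encoded on chromosome 11 at 98740776 to 98769006 and on chromosome 14 at 17659225 to 18040097. The Thra probe NM_178060 read 1.31, 1.49 and -0.50 in neonatal testis, where all 3 spots had an outlier mark, and -2.36, -2.67 and -4.58 in adult testis. Replicate 3 was the lowest of both ages, and the adult arrays were all below the neonatal arrays. With the marked spots kept, Thra changed by -3.97 (SE 0.15, adjusted p = 7.6e-05).

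The Thrb probe NM_009380 read -1.11, -1.18 and -1.31 in neonatal and -1.94, -2.30 and -2.60 in adult testis, with neonatal replicate 3 marked. The groups did not overlap, and the adult value was lower in 3 of 3 pairs. Over the unmarked pairs the change was -0.97 (SE 0.16, adjusted p = 0.0132), or -0.57 relative to the median of all mRNA probes. The second Thrb probe, NM_001113417, read -1.52, -1.27 and -0.75 in neonatal and -2.42, -2.46 and -2.70 in adult testis, with neonatal replicates 1 and 3 marked. Its groups were also apart, and with the marked spots kept its change was -1.35 (SE 0.24, adjusted p = 0.00674). In the fit with marked spots kept, all 11 receptor probes were tested: 3 were higher, against 29.8% of 19310 mRNA probes, and 6 were lower, against 49.5%. Thra and Pgr were both at least 5-fold lower there, a rule met by 15.4% of mRNA probes.

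Prlr encodes the prolactin receptor and lies on chromosome 15 at 10177238 to 10349190. Its probe NM_011169 read -0.01, -0.08 and 1.60 in neonatal testis, the last with an outlier mark, and -0.05, 0.44 and 1.34 in adult testis. The groups overlapped, and replicate 3, the separate scan run, was high in both ages. The change was 0.24 (SE 0.21, adjusted p = 0.365) without the marked spot and 0.07 (adjusted p = 0.743) with it. A p above the threshold does not show that the Prlr level was the same at both ages.

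Nr0b1, also known as Dax1, lies on chromosome X at 86191775 to 86195947 and represses the steroidogenic regulator Nr5a1. Its probe NM_007430 read 3.79, 3.75 and 3.89 in neonatal and 2.76, 2.83 and 2.44 in adult testis, with replicate 3 of both ages marked. The neonatal arrays were close together and all above the adult arrays. Nr0b1 changed by -0.97 (SE 0.14, adjusted p = 0.00975), or -0.57 relative to the median of all mRNA probes.

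Nr2c2, also known as testicular receptor 4, lies on chromosome 6 at 92091418 to 92173058. Its probe NM_011630 read -2.29, -2.41 and -2.47 in neonatal and -0.59, -0.53 and -0.47 in adult testis, with adult replicate 3 marked. Both groups were tight and far apart. Nr2c2 rose by 1.79 (SE 0.15, adjusted p = 0.00256), which was 2.19 relative to the median of all mRNA probes. By the plain paired test that the methods name, the calls for Nr2c2, Nr0b1 and both Thrb probes were lost after adjustment. The adjusted p was 0.066 for Nr2c2, 0.0702 for Nr0b1, 0.132 for NM_009380 and 0.071 for NM_001113417. With marked spots left out, Nr2c2, Nr0b1 and Thrb NM_009380 had 2 complete pairs each in that test. The paper states no adjustment of its array p-values and also asked for a 5-fold change. Losses by that test, here and below, are therefore not results under the paper's own rule. The part of the adjustment and of the left-out spots in them was not tested. The call for Thrb NM_009380 was also lost with no filter on dim probes (adjusted p = 0.0702).

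**Figure D2:**
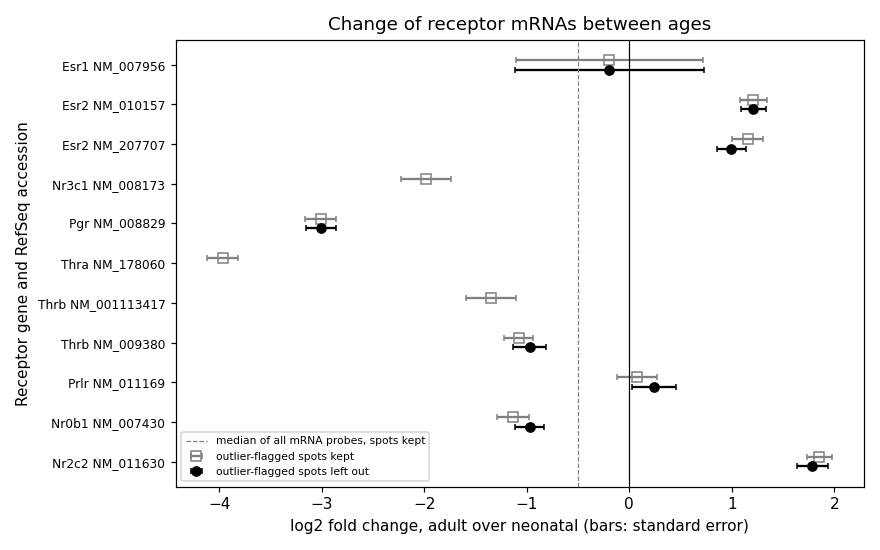
Log2 fold change of adult over neonatal testis for each receptor probe from limma, with bars for the standard error, filled circles where outlier-marked spots were left out and open squares where they were kept, and a dashed line at the median of all mRNA probes with spots kept. Esr2 and Nr2c2 lie to the right of 0, Pgr, Thra, Thrb, Nr3c1 and Nr0b1 to the left of both lines, and the bars of Esr1 cross 0.

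Within the run that held replicates 1 and 2, Esr2 NM_010157 differed by 1.16 between ages and Pgr by -2.86, and within the run that held replicate 3, by 1.31 and -3.32. Esr1 differed by -1.28 in the first run and 1.98 in the other, and Prlr, with its marked spot left out, by 0.24 in the first, against -0.26 in the other with that spot kept. With the scan run as a block in place of the replicate number, 3 of 8 receptor probes were called higher and 3 lower. In that fit 4660 of 15121 mRNA probes were higher and 7187 lower, so the receptors were again near the background. The changes relative to the median of all mRNA probes kept their sign under each scaling tried for every probe but that of Esr1, with -0.49 the value nearest 0 for Nr0b1 and -0.37 for Thrb NM_009380.

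A noncoding transcript overlapped an exon of Esr1 on the sense strand, AK033270 at chromosome 10, 5674657 to 5734545 in mm9, and another overlapped an exon of Prlr, uc007vfv at chromosome 15, 10107410 to 10278311. These were found through the study's own list of lncRNAs that changed in these samples, so their direction is not independent evidence. AK033270 read -4.13, -3.96 and -2.85 in neonatal testis and -7.23, -7.23 and -6.78 in adult testis, where none of the arrays showed it well above background. It was 8.83-fold lower in adult testis when its adult values were raised to at least the lowest signal well above background on each array. That is not a strict lower bound either. The fit gave an adjusted p of 0.000405, while with normexp background correction its change was -0.90. The uc007vfv probe read -5.12, -5.59 and -5.13 in neonatal and -2.37, -2.42 and -1.66 in adult testis, a rise of 3.13 (SE 0.18, adjusted p = 0.00036) while the Prlr mRNA probe did not pass the test. Whether these probes also read the mRNA was not tested.

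The Esr2 probe NM_010157 was the 1 receptor probe with no outlier mark and with a signal well above background throughout the 6 arrays. Among 4379 other probes with those properties, the closest in profile over 6 arrays were Jrk, with a root mean square difference of 0.078 log2 units after centring, and Hyal3, with 0.079. The Jrk probe read 1.60, 1.68 and 2.37 in neonatal and 2.83, 2.67 and 3.52 in adult testis.

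Among 33 other nuclear receptors, 9 of 32 tested probes were higher in adult testis, 15 were lower and 8 did not pass, with a median change of -0.52. Of all mRNA probes tested, 29.7% were higher and 45.8% lower, which is the background for this list and for those below. With marked spots kept, the background was 29.8% higher and 49.5% lower. Nr1h3, a sensor of oxysterols, rose by 2.79 (SE 0.19, adjusted p = 0.00175), and Nr6a1, the germ cell nuclear factor, by 2.01. By the plain paired test the Nr1h3 call was lost (adjusted p = 0.0909). Nr4a2 fell by 3.77 and Nr2f1 fell by 3.61 on the log2 scale. Over the other settings tried, the change ran from -4.12 to -2.28 for Nr4a2 and from -4.12 to -2.48 for Nr2f1. Of coregulators and chaperones, which pass on or hold back receptor action, 3 of 13 tested probes were higher, 4 were lower and 6 did not pass, with a median of 0.09. With marked spots kept, 6 of 22 were higher and 11 lower, with a median of -0.38, so the sign of the median turned. The probe NM_134027 of the coactivator subunit Med1 rose by 1.20 (SE 0.15, adjusted p = 0.00691), while the other Med1 probes, NM_001080118 and NM_013634, differed by 0.22 and 0.09 and did not pass. The call for NM_134027 was lost by the plain paired test (adjusted p = 0.0962). The chaperone Fkbp5 fell by 1.20. The coactivator Ncoa1 fell by 1.05, a call lost with no filter on dim probes (adjusted p = 0.0528) and by the plain paired test (0.11).

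Of the genes that handle oestrogen and progestin or respond to them, 3 of 9 tested probes were higher and 6 lower, with a median of -1.49. Sult1e1, which inactivates oestrogens by sulphation, rose by 5.79 (SE 0.14, adjusted p = 0.000245). The other higher probes were those of Cyp19a1, the aromatase that makes oestrogens from androgens, and Hsd17b2, which turns oestradiol into oestrone; both are named outside the rule, after their values were seen. Cyp19a1 read -7.06, -7.00 and -7.23 in neonatal testis, where 1 of 3 arrays was well above background, and -2.11, -1.76 and -1.86 in adult testis (adjusted p = 0.000121). With the neonatal values at or near the floor, the size of that rise was not settled. Hsd17b2, not well above background in neonatal testis, was higher in adult testis by at least 35.5-fold (adjusted p = 8.9e-05). That figure is not a strict lower bound and holds for the scaling used here. Over the other settings tried, the log2 change of Hsd17b2 ran from 3.13 to 6.32, so the size of its rise depended on the processing. Hsd17b1, which makes oestradiol from oestrone, fell by 4.65, Igfbp4 fell by 2.76 and Greb1 fell by 2.56. The Hsd17b1 call was lost by the plain paired test (adjusted p = 0.0815). Tff1 was not well above background.

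Of the glucocorticoid genes, 4 of 14 tested probes were higher, 5 lower and 5 did not pass, with a median of -0.15; with marked spots kept, 5 of 19 were higher and 10 lower, with a median of -0.50. Hsd11b2, which inactivates glucocorticoids, fell by 4.97 (SE 0.18, adjusted p = 0.000478), and the induced gene Tsc22d3 fell by 2.38, while the metallothionein Mt1 rose by 1.32. By the plain paired test the Hsd11b2 and Tsc22d3 calls were lost (adjusted p = 0.0558 and 0.0821). Over the other settings tried, the change ran from -5.23 to -3.88 for Hsd11b2 and from 0.67 to 1.58 for Mt1. Of the thyroid hormone genes, 2 of 13 were higher, 7 lower and 4 did not pass, with a median of -0.95. Crym, which binds thyroid hormone in the cytosol, fell by 3.76, the target Hr fell by 1.76, the Ncam1 probe NM_001113204 fell by 2.03, and the deiodinase Dio2, which makes active hormone, rose by 1.70 (SE 0.18, adjusted p = 0.00183). The Ncam1 probe NM_010875 differed in the other direction, by 1.49. Over the other settings tried, the change of Ncam1 NM_001113204 ran from -2.29 to -1.22. Ttr was not well above background.

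Prolactin signalling stood at 0 higher, 15 lower and 3 not past the test among 18 tested probes, with a median of -2.16; 45.8% of all mRNA probes were lower. Socs2, a feedback inhibitor of cytokine receptors, fell by 3.87 (SE 0.17, adjusted p = 0.000746), and Igf1 fell by 3.07. The Ghr probe NM_010284 fell by 3.68, while the other Ghr probe, NM_001048178, differed by -0.15 (SE 0.18, adjusted p = 0.502). The calls for Socs2 and Ghr NM_010284 were lost by the plain paired test (adjusted p = 0.0631 and 0.0572). Prl was not well above background. Several of these genes also serve other cytokine and growth factor receptors. Of the partners of Nr0b1 and Nr2c2, 2 of 12 tested probes were higher and 7 lower, with a median of -1.38. Hoxd4 fell by 2.51, Pck1 fell by 2.39 and Gata4, a regulator of steroidogenic genes, fell by 2.34, and Star and Cyp11a1, which start steroid synthesis, rose by 1.34 and 1.16. The Star, Cyp11a1 and Pck1 calls were lost with no filter on dim probes (adjusted p = 0.106, 0.0669 and 0.0872) and by the plain paired test (0.133, 0.128 and 0.154), and that of Star also without replicate 1 (0.0944).

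Markers of the cells that could hold these receptors moved between the ages as well. Of the Sertoli cell markers, 5 of 5 tested probes were lower in adult testis. The sums in this paragraph and the next cover every probe of a list, tested or not, with marked spots kept. They take 1 as the 75th percentile of an array. Over 9 Sertoli probes the summed signal was 150, 158 and 130 in neonatal and 43.1, 39.7 and 37.1 in adult testis. Of the Leydig cell markers, 2 of 4 were higher, the same Star and Cyp11a1, and 1 lower, Hsd3b1 (4 of 7 and 1 with marked spots kept). All 3 calls were lost with no filter on dim probes and by the plain paired test, with adjusted p = 0.052 and 0.109 for Hsd3b1. The summed Leydig signal was 26.7, 28.6 and 25.5 in neonatal and 81.2, 67.5 and 62.8 in adult testis. The spermatid markers were higher in 5 of 5 tested probes, with sums of 0.739, 0.777 and 0.858 in neonatal and 1227, 1449 and 1674 in adult testis. The part of these shifts in the receptor changes was not tested.

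The brightest probes of these lists were those of Vim, Insl3 and Prm2. Peritubular myoid markers were lower in 3 of 4 tested probes, with sums of 21.7, 22.0 and 27.0 and then 4.79, 4.34 and 6.55, Myh11 brightest and Cnn1 not well above background. Spermatogonium markers were lower in 6 of 7 and higher in 1, Id4, which rose by 2.75, with sums of 73.8, 71.1 and 85.5 and then 15.0, 16.7 and 17.5, Kit brightest and Gfra1 not well above background. The Id4 call was lost by the plain paired test (adjusted p = 0.0804). Spermatocyte markers were higher in 4 of 5 and lower in 1, Dmc1, with sums of 21.2, 18.5 and 28.4 and then 179, 192 and 243, Pgk2 brightest. Endothelial markers were lower in 7 of 7, with sums of 8.76, 9.99 and 15.9 and then 2.49, 2.09 and 3.58, Cdh5 brightest. Macrophage markers were lower in 1 of 2, Csf1r, whose call was lost under 6 of 14 alternatives, with sums of 8.18, 8.35 and 8.59 and then 6.91, 6.98 and 8.05, C1qa brightest. Epididymis and efferent duct markers were higher in 2 of 6 and lower in 1, with sums of 6.50, 1.35 and 7.77 and then 0.523, 0.690 and 0.816, Crisp1 brightest and Lcn8 and Slc9a3 not well above background. The part of these lists in the receptor changes was not tested either.

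Promoter stretches from 250 bases before to 50 bases after a gene start were taken from RefSeq (GRCm38.p6) for 7 of the 9 receptor genes, 11 stretches in all. The hexamer AGGTCA, a core half-site of many nuclear receptors, was searched on both strands. It was found in 2 of the 11 stretches, and in 16.3% of all 32851 promoter stretches. The matches are shown for Nr0b1 and Thrb, both lower in adult testis, with the hexamer in capitals, on the plus strand at chrX:86191609-86191694 and chr14:17660736-17660821. A match is a description of the sequence and was not tested as a binding site.
Nr0b1: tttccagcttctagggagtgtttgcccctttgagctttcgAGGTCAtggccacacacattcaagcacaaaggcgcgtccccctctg
Thrb: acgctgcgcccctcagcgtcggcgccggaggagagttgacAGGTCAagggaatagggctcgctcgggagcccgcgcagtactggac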

How the data were processed

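The authors read the arrays with Agilent Feature Extraction 10.5.1.1, per the submitters' processing notes, and deposited the intensity of each spot, background-subtracted within the array. A second table, of log2 values, was deposited by the authors; on each array 99.8% of these equal, within 0.001, the log2 intensity minus a constant of that array. Replicate spots were averaged, signals were divided by the 75th percentile of their array (749.1 to 2954), a floor was set at -7.23 and log2 was taken. Outlier-marked spots, 6.09% to 30.9% per array, were left out. Probes with at least 2 complete pairs that were well above background on 1 or more arrays entered limma 3.58.1 (R 4.3.3); tables were made in Python 3.11.15. Of 22464 mRNA probes, 97.5% were named through RefSeq.

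The replicate number was a block, as the methods of the study use a paired test. The ages came from different mice, and the paper does not say what joins equally numbered arrays. A pair here means only a shared replicate number. Deviations of equally numbered arrays from the group means correlated at 0.497, 0.429 and 0.777 for replicates 1, 2 and 3, while differently numbered arrays of the same scan run correlated at 0.470 and 0.508. Genes of each list were named from those with the largest changes, at most 3 per direction, among called probes well above background on all 6 arrays. A gene that this rule names among the coregulators is not reported here. The members and lists were chosen with earlier results of these data known. The 3 arrays per age limit the precision.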

Additional observations from a re-analysis of the deposited data

How the results depend on the processing

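The receptor probes were refitted with other scalings, filters, blocks and tests, and without each replicate. Over 161 such values, 152 kept direction and side of the threshold, 5 lost the call and 4 changed sign. Those 4 were uncalled: Esr1 at 0.45 with normexp and 0.99 without replicate 2 (-1.28 to 0.99 over the replicates left out), and Prlr at -0.019 with a shift to the median and -0.19 with the authors' log2 values. Over 66 further probes, which are those the naming rule picks, printed or not, and those named after their values were seen, 55 of 972 values lost the call, 28 of them by the methods' t-test (Nr1h3, Hsd17b1, Hsd11b2, Tsc22d3, Socs2, Ghr, Med1, Ncoa1, Pck1, Hsd3b1, Star and Cyp11a1 among them) and 11 with no filter on dim probes; Dmc1 lost it with normexp. Called Mt2 changed sign with quantile normalization, at -0.063. The uncalled Ghr probe NM_001048178 changed sign with marked spots kept (0.024) and normexp (0.017). The uncalled Med1 probes NM_001080118 and NM_013634 changed sign with quantile normalization (-0.17 and -0.30), a shift to the median (-0.039 and -0.16) and the authors' log2 values (-0.044 and -0.17), ran from -0.26 to 0.65 and from -0.26 to 0.41 over the replicates left out, and were called higher with normexp. Against 3 receptor probes higher, 3 lower and 1 at 5-fold, there were 6 lower and 2 at 5-fold with outlier-marked spots kept (where 10 of 14 oestrogen and progestin probes, 11 of 17 thyroid hormone probes, 9 of 9 Sertoli probes and 2 of 5 macrophage probes were lower and 9 of 9 spermatid probes higher), 5 and 2 with the authors' log2 values, 0 at 5-fold with normexp, 2 lower with no filter on dim probes, and 2 higher and 1 lower by the methods' t-test, which called 5965 of all mRNA probes against 11416 (8777 before adjustment). Without a replicate, 1 to 3 were higher, 1 to 3 lower, and 4827 to 11145 mRNA probes were called, as 3 receptor probes had 2 complete pairs left without replicate 1 or 2; the causes of the other differences were not tested. Beside these counts, 75.5% of all mRNA probes tested were called in the main fit and 80.8% with the authors' log2 values. The share was 79.3% with normexp, 50.7% with no filter on dim probes and 39.5% by the methods' t-test. Calls by that t-test were judged here after adjustment, which the paper does not state for its array p-values. In the fit with no replicate block, 3 receptor probes were higher, 3 lower, 1 at 5-fold and 10391 mRNA probes (68.6%) were called, and the block changed no receptor call. Normexp moved the median of all mRNA probes from -0.40 to 0.03 and the share of calls that were higher from 39.4% to 51.2%; quantile normalization moved the median to -0.73, the shift to the median to -0.65 and the authors' values to -0.84. For Nr3c1, Thra and Thrb NM_001113417 the alternatives were run with marked spots kept, a choice made after seeing the data; for Nr3c1 the authors' log2 values gave no result. Signals near background limit Esr1 and the adult level of Pgr.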
